A study of Homo sapiens with 24 samples.

Results

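Expression of 9 targets of the transcription factor NRF2 was examined in 24 RNA-seq libraries from OE33 and SK-GT-4, established lines of human esophageal adenocarcinoma. The 9 genes, HMOX1, TRIM16, NQO1, GCLM, GCLC, TXNRD1, SRXN1, OSGIN1 and FTH1, were taken by name from a table of 58735 genes, and each name had a single gene identifier. In each line, Cas9 control cells (labelled cGAS WT) and cells in which cGAS, the cytosolic DNA sensor encoded by CGAS, had been knocked out with CRISPR (cGAS KO) received DMSO or 500 nM reversine for 48 hours. Reversine inhibits the spindle checkpoint kinase MPS1 (MPS1i) and was used to induce chromosomal instability. The 8 groups, OE33 Cas9 DMSO, OE33 Cas9 reversine, OE33 cGAS KO DMSO, OE33 cGAS KO reversine and the same 4 in SK-GT-4, held 3 libraries each, 1 from each of 3 batches named in the labels, and every culture carried a lentiviral Cas9 vector. Cells of both genotypes were clones grown from single cells, and the number of clones sequenced is not given in the sources used here, so a difference between clones and the loss of cGAS cannot be told apart. With differences between the 3 batches taken out, the p-values measure the spread that is left among libraries of these clones. Only the comparison of levels between lines kept the spread between batches in. Values were CPM (counts scaled to library size with TMM factors), and a call needed an adjusted p no higher than 0.01 in edgeR's quasi-likelihood test with batch as a block and Benjamini-Hochberg adjustment over all genes tested.

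NRF2, encoded by NFE2L2, is held at a low level by KEAP1, which presents it to the CUL3 ubiquitin ligase. Oxidants and electrophiles modify KEAP1, and NRF2 then accumulates, pairs with a small MAF protein (MAFF, MAFG or MAFK) and binds antioxidant response elements. BACH1 competes for the same elements and is displaced by heme, a control that acts strongly on HMOX1. In the esophageal epithelium, the KEAP1-NRF2 pair is known to influence keratinization and the handling of oxidative damage.

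The members fall into 4 roles. HMOX1, heme oxygenase 1, opens the heme ring and releases iron, and FTH1, the ferritin heavy chain, oxidizes and stores iron. NQO1 reduces quinones. GCLM and GCLC, the modifier and catalytic subunits of glutamate-cysteine ligase, carry out the first step of glutathione synthesis, TXNRD1 reduces thioredoxin and SRXN1 repairs overoxidized peroxiredoxins. OSGIN1 is an oxidative stress response gene linked to growth inhibition, and TRIM16 is a tripartite motif protein that acts in the autophagy of damaged organelles and protein aggregates. TRIM16 is also on the study's list of cGAS-dependent genes shared by the lines, a list drawn from these libraries. HMOX1 and TRIM16 gave the set its name after their values were known, so their reversine effects in Cas9 cells and their genotype differences in that effect are given below as descriptions with no test. The reversine effect of TRIM16 in cGAS KO cells also entered the choice of the study's list, and is likewise a description. Differences between genotypes of HMOX1 and TRIM16, in DMSO or under reversine, use the same libraries, so p-values given for them are descriptions.

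On GRCh38, the build named in the submitters' processing notes, the deposited table placed HMOX1 (ENSG00000100292) at chr22:35380361-35394214 on the plus strand and FTH1 (ENSG00000167996) at chr11:61959718-61967660 on the minus strand. NQO1 (ENSG00000181019, chr16:69706996-69726951, minus strand) and OSGIN1 (ENSG00000140961, chr16:83948282-83966332, plus strand) lie on the same chromosome. GCLM (ENSG00000023909) spans chr1:93885205-93909456 on the minus strand, GCLC (ENSG00000001084) spans chr6:53497341-53616970 on the minus strand, and TXNRD1 (ENSG00000198431) spans chr12:104215779-104350305 on the plus strand. SRXN1 (ENSG00000271303) was placed at chr20:646615-653370 and TRIM16 (ENSG00000221926) at chr17:15627960-15684311, both on the minus strand.

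Because the set is defined by a shared regulator, the promoter windows in the RefSeq set (GRCh38.p14, 250 bases before to 50 after a start site) were searched for the core of the antioxidant response element. Windows were found for 7 of the 9 members, 8 windows in all, and none was used for HMOX1 or FTH1. The core, TGACNNNGC read on both strands, was present in 13.3% of all 35116 windows and in 3 of the 8 member windows, those of GCLM and TXNRD1. The 4 matches are printed with 8 bases on each side, in the direction of the gene, with the core in capitals.
GCLM, core read on the opposite strand, beginning 34 bases before the start site (window chr1:93909381-93909680, minus strand): cgatttctGCTTAGTCAttgtcttc
TXNRD1, window chr12:104215529-104215828, plus strand, core on the gene's strand, beginning 99 bases before the start site: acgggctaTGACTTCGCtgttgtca
TXNRD1, the same window, core on the opposite strand, beginning 8 bases before the start site: gtccttcgGCTCCGTCAgttcccac
TXNRD1, window chr12:104286782-104287081, plus strand, core on the opposite strand, beginning 102 bases before the start site: ggatttctGCTTTGTCAttctgact
The windows of GCLC, NQO1, OSGIN1, TRIM16 and SRXN1 did not hold these letters. A match is a description of the window and says nothing of binding. Other spellings of the core and bases outside the windows were not searched. A window without a match therefore does not show that the gene lacks the element.

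Library totals ranged from 15561268 to 25284177 counts, and all 9 members passed the filter on low counts in both lines, with 20426 genes tested in OE33 and 22782 in SK-GT-4. CGAS was at 28.9 to 41.6 CPM in the OE33 Cas9 libraries and at 2.31 to 2.82 CPM in 5 of the 6 OE33 cGAS KO libraries. The sixth, labelled as replicate 2 of OE33 cGAS KO in DMSO, held 15.6 CPM. In SK-GT-4, CGAS was at 14.7 to 26.1 CPM in Cas9 and at 2.22 to 6.09 CPM in cGAS KO libraries. In 2 SK-GT-4 libraries, labelled as replicate 1 of cGAS KO in DMSO and replicate 2 of Cas9 with reversine, genes over 6000 bases were low against genes under 2000 bases. Their median log2 deviation from the cell line mean, long minus short genes, was -1.58 and -1.28, against -0.06 to 0.82 in the other SK-GT-4 libraries. Values fitted without the OE33 library or without both SK-GT-4 libraries are given beside the results they moved most. Epithelial markers (EPCAM, CDH1, KRT8, KRT18, KRT19) summed to 15660 to 22013 CPM in OE33 and to 3946 to 14909 CPM in SK-GT-4, and leukocyte markers (PTPRC, CD3E, CD68, LYZ) to at most 0.385 CPM. Endothelial markers (PECAM1, VWF, CDH5) summed to at most 0.370 CPM in OE33 and 20.6 CPM in SK-GT-4. Fibroblast markers (COL1A1, COL1A2, DCN, LUM) reached 6.52 CPM in OE33 and 87.7 CPM in SK-GT-4.

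HMOX1 was higher under reversine than under DMSO in every one of the 12 pairs of libraries that shared a line, genotype and batch. The 6 pairs of Cas9 cells among them belong to the comparison that named the set. In the 6 pairs of cGAS KO cells, HMOX1 was the 1 member of 9 that was higher in every pair, as were 2.43% of 25181 genes. FTH1 was lower in cGAS KO than in Cas9 cells in 12 of 12 pairs, and in OE33 under reversine that difference passed the test. Between untreated Cas9 cells of the lines, SK-GT-4 held more HMOX1 and NQO1 and OE33 held more GCLC and TXNRD1. The plot of the 9 genes by library shows these values.

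**Figure D1:**
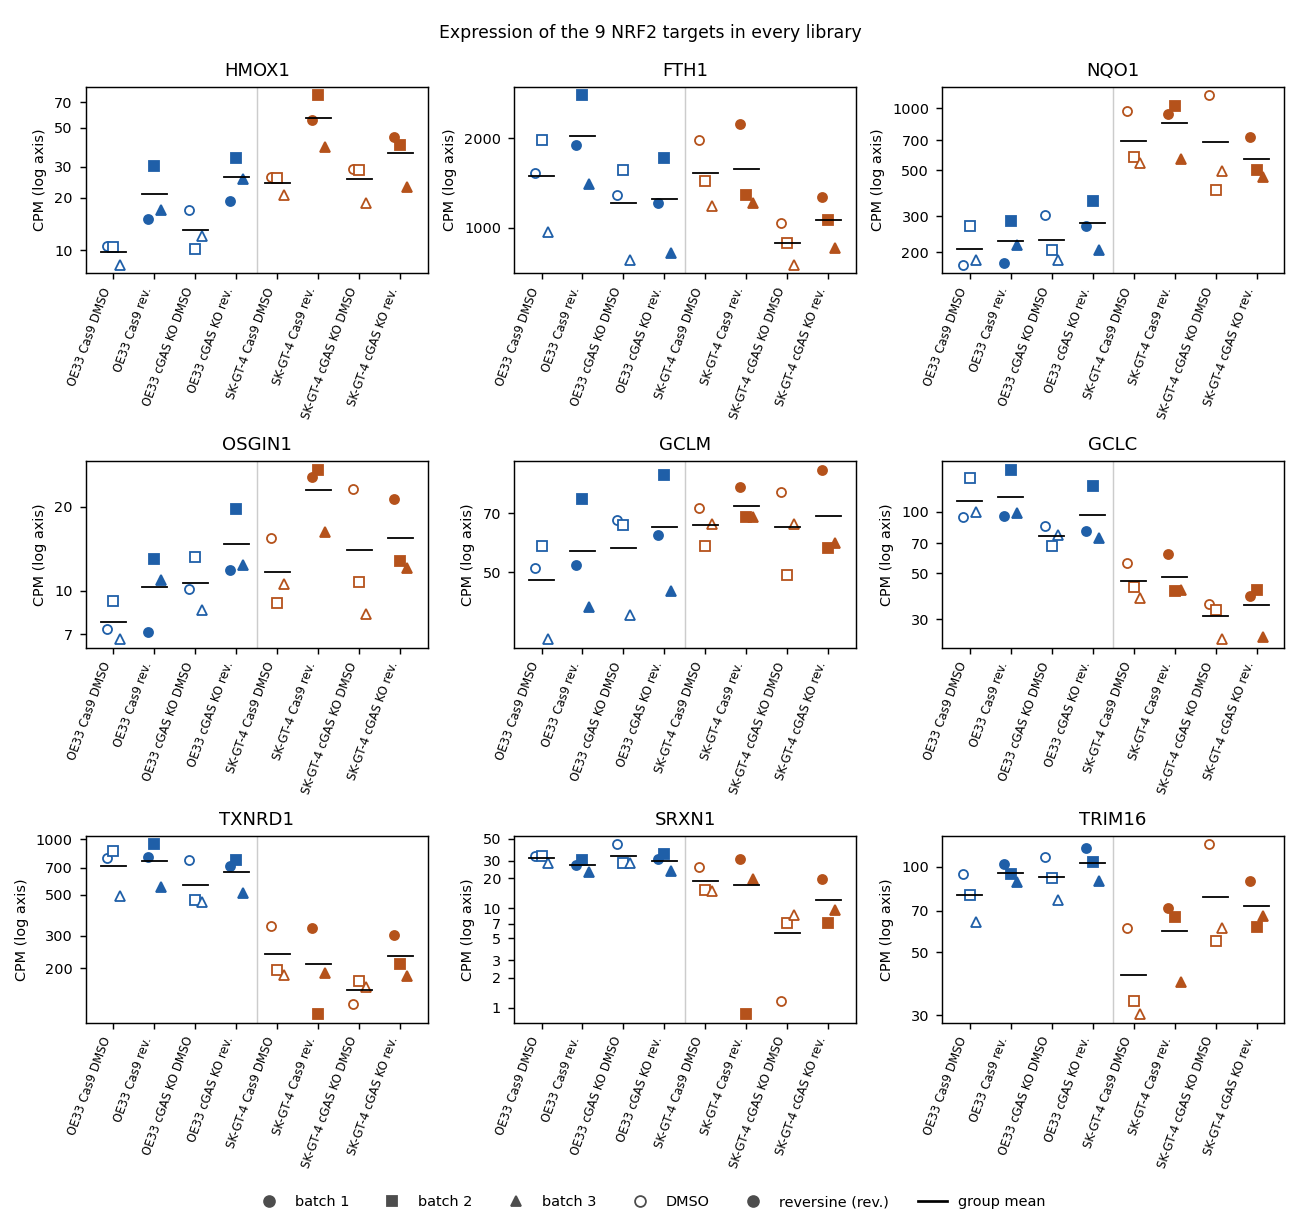
Expression of each member in all 24 libraries, in CPM on a log axis. Open symbols are DMSO and filled symbols reversine, circles, squares and triangles are batches 1, 2 and 3, blue is OE33, orange is SK-GT-4, and black lines are means of 3 libraries. HMOX1 sits at 8.27 to 10.6 CPM in OE33 Cas9 DMSO and at 39.0 to 76.6 CPM in SK-GT-4 Cas9 reversine, and SRXN1 is at 0.866 and 1.17 CPM in 2 SK-GT-4 libraries.

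The first comparison asked how the 2 lines differed before treatment. Per kilobase of the gene length in the table, the median level over the 12 OE33 libraries was highest for FTH1 (720 CPM per kb), then TXNRD1 (111), NQO1 (65.1), TRIM16 (16.4), SRXN1 (11.0), GCLC (10.9), GCLM (10.2), HMOX1 (6.68) and OSGIN1 (3.05 CPM per kb). In SK-GT-4 the order of median CPM per kb was FTH1 (589), NQO1 (176), TXNRD1 (27.7), GCLM (12.4), HMOX1 (12.1), TRIM16 (10.8), GCLC (4.64), SRXN1 (4.52) and OSGIN1 (4.07). FTH1 led and OSGIN1 was last in both lines. Over the 12 libraries of OE33, the ranges of FTH1 and TXNRD1 and those of NQO1 and TRIM16 did not overlap, while every other member overlapped its neighbour in the order. In SK-GT-4 the ranges of FTH1, NQO1, TXNRD1 and GCLM were separate, and from GCLM down neighbours overlapped.

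In untreated Cas9 cells, NQO1 was at 174, 268 and 183 CPM in OE33 and at 967, 579 and 541 CPM in SK-GT-4. The groups did not overlap, and NQO1 was 3.34-fold lower in OE33 (log2 fold change -1.74 ± 0.37 SE, adjusted p = 0.000677, n = 3 per group, edgeR). HMOX1 was at 10.6, 10.4 and 8.27 CPM in OE33 and at 26.3, 25.8 and 20.8 CPM in SK-GT-4, again without overlap, and was 2.49-fold lower in OE33 (-1.32 ± 0.32, adjusted p = 0.00231, edgeR). TXNRD1 was at 793, 863 and 496 CPM in OE33 and at 339, 195 and 183 CPM in SK-GT-4, 3.00-fold higher in OE33 (1.59 ± 0.36, adjusted p = 0.00115, edgeR). GCLC was at 94.1, 146 and 99.2 CPM in OE33 against 56.1, 43.1 and 37.9 CPM in SK-GT-4, 2.47-fold higher in OE33 (1.31 ± 0.29, adjusted p = 0.000984, edgeR). Thus 4 of 9 members were called, 2 in each direction, against 22% of all 25181 genes tested, and DESeq2 called the same 4 among 25.7% of genes. The groups did not overlap for 6 of 9 members (also TRIM16 and SRXN1), which was so for 50.1% of all genes. In bulk RNA, a change in the number of cells of a kind and a change in RNA per cell cannot be told apart. GCLM, the partner subunit of GCLC, was at 34.1 to 58.1 CPM in OE33 and 58.0 to 72.1 CPM in SK-GT-4, and it was not called (-0.45 ± 0.29, adjusted p = 0.257, edgeR). OSGIN1 (-0.59 ± 0.35), SRXN1 (0.76 ± 0.64) and FTH1 (-0.04 ± 0.35, log2 OE33 minus SK-GT-4) were not called either. The ratio of GCLC to GCLM was 1.15 to 1.82 in OE33 Cas9 DMSO libraries and 0.361 to 0.488 in those of SK-GT-4, both per kilobase.

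This comparison had no block, because batch numbers are not stated to be shared between lines. The HMOX1 call was lost without OE33 Cas9 DMSO replicate 3 (adjusted p = 0.0152, edgeR), and the TXNRD1 call without SK-GT-4 Cas9 DMSO replicate 2 (0.0105) or 3 (0.0117). Without a whole batch the HMOX1 call was lost in each case (adjusted p from 0.0134 to 0.0249), TXNRD1 (0.0345 and 0.0222) and GCLC (0.0238 and 0.0231) without batch 2 or 3, and NQO1 without batch 3 (0.014, edgeR). TRIM16 had a log2 difference of 0.93 ± 0.30 (adjusted p = 0.0211, edgeR) and was called without SK-GT-4 Cas9 DMSO replicate 1 (1.31, adjusted p = 0.00384). Its near copy TRIM16L took 29.5% to 37.4% of the counts of the pair in OE33 and 19.6% to 62.0% in SK-GT-4, and with both genes summed the difference was 0.24 ± 0.33.

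The second comparison asked what reversine did to these genes. HMOX1 in OE33 Cas9 cells was at 10.6, 10.4 and 8.27 CPM in DMSO and at 15.1, 30.4 and 17.1 CPM under reversine in batches 1, 2 and 3. In SK-GT-4 Cas9 cells it was at 26.3, 25.8 and 20.8 CPM in DMSO and at 55.1, 76.6 and 39.0 CPM under reversine. The groups did not overlap in either line. The fitted ratio was 2.05-fold in OE33 (log2 1.03 ± 0.24 SE) and 2.27-fold in SK-GT-4 (1.18 ± 0.22), given as descriptions. The highest SK-GT-4 value belonged to 1 of the 2 libraries with low long genes, and without both of them the ratio in SK-GT-4 was 2.03-fold (1.02 ± 0.18).

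In cGAS KO cells, HMOX1 was at 17.0, 10.2 and 12.1 CPM in OE33 DMSO and at 19.1, 33.5 and 25.6 CPM under reversine. The groups did not overlap, as was true of 1 of 9 members and 5.16% of all genes, with a 1.92-fold ratio (0.94 ± 0.23, adjusted p = 0.444, edgeR). It was called with a block for each genotype and batch (0.97 ± 0.18, adjusted p = 0.00211, edgeR), where 0.494% of genes were called. Without OE33 cGAS KO DMSO replicate 2, the library with 15.6 CPM of CGAS, the log2 ratio was 0.60 ± 0.20 (adjusted p = 0.768, edgeR). In SK-GT-4 cGAS KO cells, HMOX1 was at 29.2, 28.8 and 18.6 CPM in DMSO and at 44.4, 39.8 and 23.0 CPM under reversine. These groups overlapped, and the 1.39-fold ratio did not pass the test (0.47 ± 0.21, adjusted p = 0.966, edgeR), and the log2 ratio was 0.46 ± 0.18 without the 2 libraries.

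**Figure D2:**
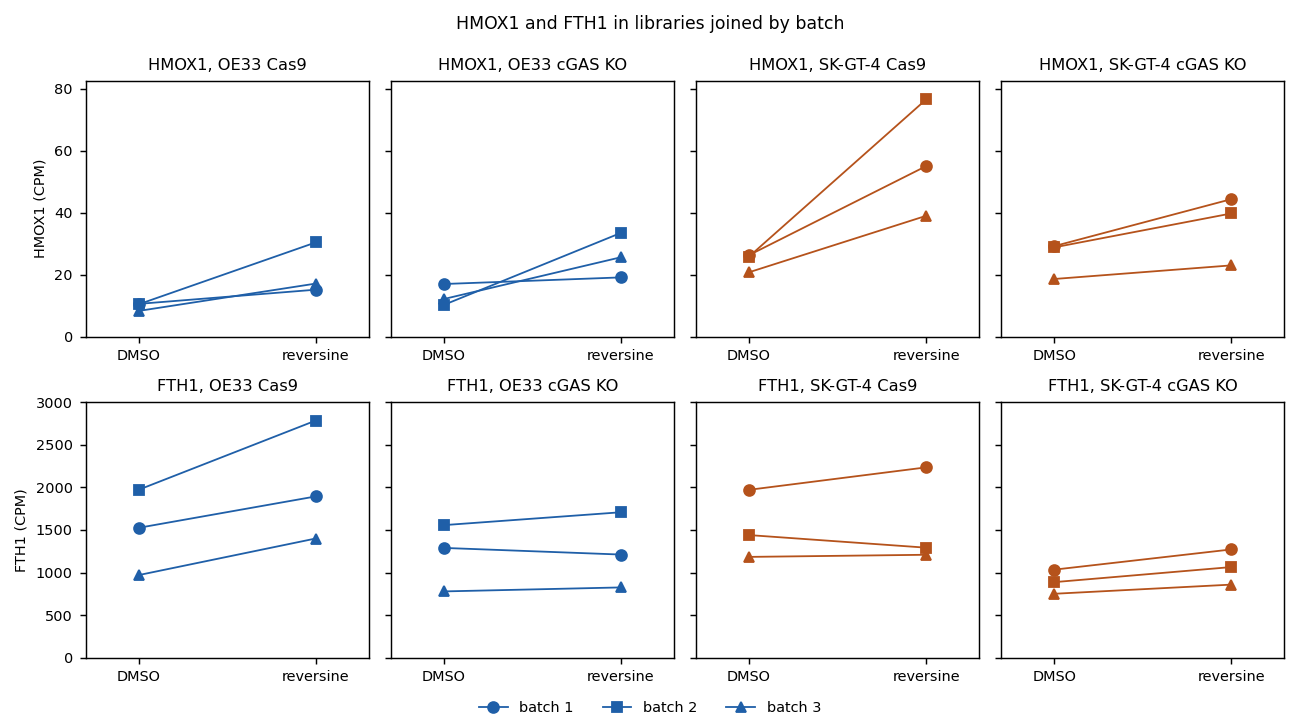
HMOX1 (top) and FTH1 (bottom) in CPM, with each line joining the DMSO and reversine libraries of 1 batch. All 12 HMOX1 lines slope upward from DMSO to reversine, and FTH1 of cGAS KO cells lies below FTH1 of Cas9 cells in each batch.

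Ordered by group mean, HMOX1 ran from OE33 Cas9 DMSO (9.75 ± 1.28 CPM, SD) through OE33 cGAS KO DMSO (13.1 ± 3.48), OE33 Cas9 reversine (20.9 ± 8.31), SK-GT-4 Cas9 DMSO (24.3 ± 3.07), SK-GT-4 cGAS KO DMSO (25.5 ± 6.02), OE33 cGAS KO reversine (26.1 ± 7.20) and SK-GT-4 cGAS KO reversine (35.7 ± 11.3) to SK-GT-4 Cas9 reversine (56.9 ± 18.9 CPM). Each group's range overlapped that of the next in this order. Within batches, however, the SK-GT-4 cGAS KO reversine library held less HMOX1 than the Cas9 reversine library in all 3 (-0.31, -0.94 and -0.76 on the log2 scale), a difference that was not called, as given below. HMOX2, the constitutive heme oxygenase, was more abundant than HMOX1 in OE33, where the ratio of HMOX1 to HMOX2 per kilobase was 0.0928 to 0.372. In SK-GT-4 that ratio was 0.352 to 1.91. HMOX2 itself had log2 reversine effects of -0.15 in Cas9 and -0.16 in cGAS KO cells of OE33, against 0.32 and -0.47 for SK-GT-4, none of them called.

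TRIM16 in OE33 Cas9 cells was at 94.0, 79.5 and 63.8 CPM in DMSO and at 102, 93.8 and 88.4 CPM under reversine, an overlap of the groups with higher values in all 3 batches. The ratio was 1.19-fold (0.25 ± 0.11). In SK-GT-4 Cas9 cells, it was at 60.7, 33.6 and 30.3 CPM in DMSO and at 71.5, 66.6 and 39.2 CPM under reversine, a 1.46-fold ratio (0.55 ± 0.24) that was 1.22-fold (0.29 ± 0.18) without the 2 libraries. With TRIM16L summed in, the log2 ratios were 0.26 ± 0.11 and 0.37 ± 0.20. In cGAS KO cells, the OE33 log2 ratio of TRIM16 was 0.15 ± 0.11, and that of SK-GT-4 was -0.03 ± 0.24. The study's list required a smaller rise in these cells, so both are descriptions.

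Of the 7 members that did not name the set, none was called in Cas9 cells of OE33 by edgeR, where 0.0049% of genes, a single gene, were called. There, 2 of the 7 had an unadjusted p under 0.05, FTH1 and OSGIN1, as did 1420 of 20426 genes. FTH1 was at 1525, 1972 and 969 CPM in DMSO and at 1894, 2784 and 1399 CPM under reversine, higher in all 3 batches but with overlapping groups (1.34-fold, 0.42 ± 0.12, adjusted p = 0.407). DESeq2 called FTH1 (0.43, adjusted p = 0.00493) among 0.0881% of genes and no other of the 7. OSGIN1 was at 7.29, 9.23 and 6.71 CPM in DMSO and at 7.12, 13.0 and 10.9 CPM under reversine (0.37 ± 0.18, adjusted p = 0.718). The other 5 had log2 ratios from -0.26 for SRXN1 to 0.20 for GCLM, and the groups of all 7 overlapped, while those of 9.49% of genes did not.

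In SK-GT-4 Cas9 cells, 0 of the 7 were called by edgeR or DESeq2, with 0% and 0.00878% of all genes called by these tools. By edgeR, 566 of 22782 genes had an unadjusted p under 0.05, and 1 of the 7 did. That was OSGIN1, at 15.4, 9.04 and 10.6 CPM in DMSO and at 25.5, 27.1 and 16.2 CPM under reversine. These groups did not overlap, the case for 1 of the 7 members and 9.05% of all genes, and the ratio was 1.99-fold (0.99 ± 0.27, adjusted p = 0.981, edgeR), or 1.66-fold (0.73 ± 0.20, adjusted p = 0.114) without the 2 libraries. NQO1, the usual marker gene of NRF2 activity, had an OE33 log2 ratio of 0.10 ± 0.19 and an SK-GT-4 log2 ratio of 0.33 ± 0.30, the latter at -0.00 ± 0.20 without the 2 libraries. GCLM (0.20 ± 0.12 and 0.15 ± 0.20), GCLC (0.02 ± 0.17 and 0.08 ± 0.21) and TXNRD1 (0.08 ± 0.15 and -0.21 ± 0.32) stayed within 2 standard errors of 0 in both lines.

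In cGAS KO cells, 0 of 9 members were called in either line by edgeR or DESeq2, with 0% of all genes called by edgeR, and 0.0343% in OE33 and 0% in SK-GT-4 by DESeq2. TRIM16 is counted among the 9, although its effect in these cells entered its selection. An unadjusted p under 0.05 was found for 2 members in OE33 (HMOX1 and OSGIN1) and for 1 in SK-GT-4 (HMOX1), against 1420 of 20426 and 317 of 22782 genes. TXNRD1 in SK-GT-4 cGAS KO cells, at 128, 172 and 159 CPM in DMSO and at 305, 212 and 182 CPM under reversine, was the 1 member there whose groups did not overlap (3.99% of all genes), and its log2 ratio was 0.53 ± 0.32, or 0.21 ± 0.18 without the 2 libraries. OSGIN1 in OE33 cGAS KO cells was at 10.2, 13.3 and 8.54 CPM in DMSO and at 11.9, 19.7 and 12.4 CPM under reversine (0.43 ± 0.17, adjusted p = 0.634, edgeR). The log2 ratios of the other members in cGAS KO cells ran from -0.18 for SRXN1 to 0.24 for GCLC in OE33 and from -0.18 for NQO1 to 0.81 for SRXN1 in SK-GT-4. Without OE33 cGAS KO DMSO replicate 2, those of GCLC (-0.06 ± 0.12), TXNRD1 (-0.03 ± 0.12) and NQO1 (-0.04 ± 0.17) in OE33 were below 0. Higher values under reversine were seen in 11 of 12 pairs for TRIM16, in 10 of 12 for GCLM, OSGIN1 and FTH1, in 9 for TXNRD1, in 8 for NQO1 and GCLC and in 6 for SRXN1. In the 6 cGAS KO pairs alone, the counts were 5 for TRIM16, TXNRD1, OSGIN1 and FTH1, 4 for GCLM, GCLC and SRXN1 and 3 for NQO1. The Cas9 pairs of TRIM16 belong to the comparison that named the set. The share of all genes with such counts is not given, so they are descriptions. The median log2 ratio of the 9 was 0.20 and 0.15 in Cas9 cells and 0.21 and 0.21 in cGAS KO cells of OE33 and SK-GT-4, against 0.01, 0.04, 0.00 and 0.04 over all genes. All these medians include HMOX1 and TRIM16, which named the set after the Cas9 values were known. The effect of TRIM16 in cGAS KO cells also entered its selection. The medians of both genotypes therefore cannot show a rise of the set and are descriptions.

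**Figure D3:**
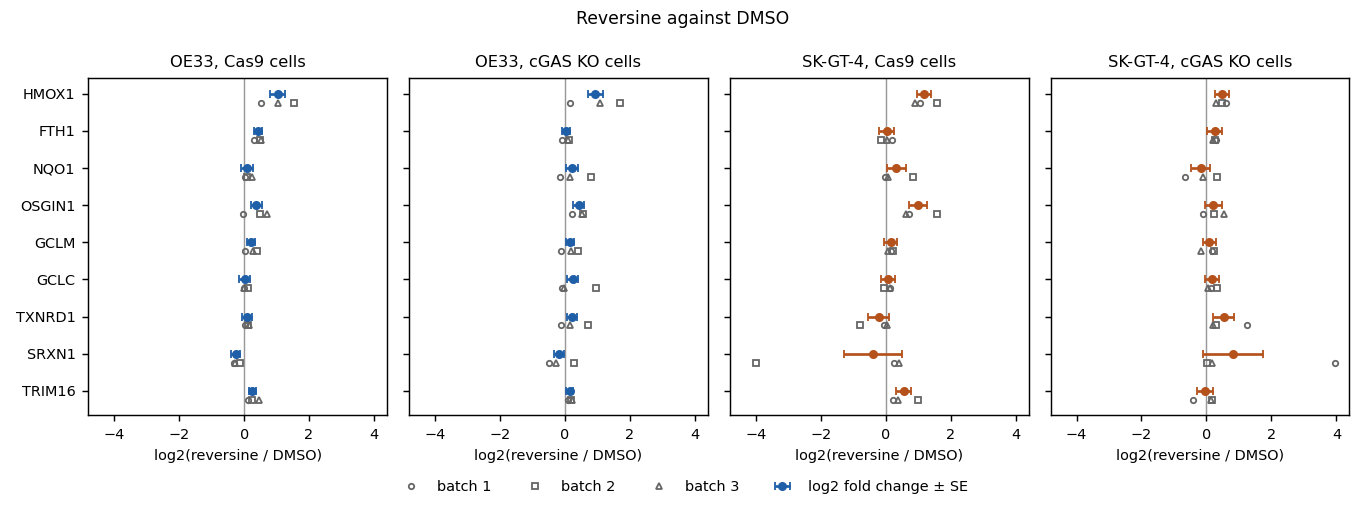
Log2 ratio of reversine to DMSO for the 9 members in each line and genotype. Filled points are the fitted log2 fold changes with their standard errors, and open symbols are the ratios within batches 1, 2 and 3. HMOX1 lies above 0 in all 4 panels and in every batch, and the wide bars of SRXN1 in SK-GT-4 come with within-batch ratios of -3.99 and 3.97.

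The reversine values of SRXN1 in SK-GT-4 rested on 2 libraries. It was at 26.2, 15.2 and 14.8 CPM in Cas9 DMSO and at 31.3, 0.866 and 19.8 CPM in Cas9 reversine libraries. The cGAS KO libraries held 1.17, 7.07 and 8.60 CPM in DMSO and 19.8, 7.12 and 9.61 CPM under reversine. The values of 0.866 and 1.17 CPM, 15 and 20 counts, came from the 2 libraries with low long genes, and the next lowest SK-GT-4 library held 148 counts. TXNRD1 was also lowest in these libraries, at 113 and 128 CPM, and TXN, the thioredoxin that TXNRD1 reduces, was highest there at 1327 and 1986 CPM. The part of the length difference in these values was not tested. Without both libraries the SRXN1 reversine effect was 0.24 ± 0.20 in Cas9 and 0.20 ± 0.21 in cGAS KO cells.

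The third comparison asked whether the reversine effect differed between genotypes, and is coded as cGAS KO minus Cas9. HMOX1 had a log2 difference of -0.10 ± 0.33 for OE33, or -0.42 ± 0.27 without OE33 cGAS KO DMSO replicate 2. For SK-GT-4 it was -0.71 ± 0.30, which was below 0 in all 3 batches (-0.46, -1.10 and -0.60). It was -0.55 ± 0.25 without the 2 libraries. TRIM16 had -0.10 ± 0.15 in OE33 and -0.59 ± 0.34 in SK-GT-4, or -0.23 ± 0.24 without the 2 libraries and -0.22 ± 0.28 with TRIM16L summed in. Of the 7 other members, 0 were called in either line by edgeR or DESeq2, as was true of 0% of all genes by both tools. FTH1 in OE33 (-0.39 ± 0.16, adjusted p = 1.00) was the 1 member with an unadjusted p under 0.05, which 383 of 20426 OE33 genes also had. FTH1 was below 0 in all 3 batches at -0.40, -0.36 and -0.44. The share of all genes with such batch signs is not given for this comparison, so those of HMOX1 and FTH1 are descriptions. OSGIN1 in SK-GT-4 had -0.78 ± 0.38 (adjusted p = 0.823) and -0.32 ± 0.28 without the 2 libraries. In OE33, the remaining members lay between -0.06 (GCLM) and 0.22 (GCLC), among them OSGIN1, SRXN1, NQO1 and TXNRD1. In SK-GT-4, SRXN1 (1.20 ± 1.25), TXNRD1 (0.74 ± 0.46) and NQO1 (-0.50 ± 0.42) had wide errors and stood at -0.04 ± 0.28, 0.18 ± 0.25 and 0.07 ± 0.27 without the 2 libraries. GCLM (-0.06 ± 0.28), GCLC (0.10 ± 0.30) and FTH1 (0.23 ± 0.33) lay within 1 standard error of 0 there.

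The reversine effects of the 2 lines were also set against each other, as OE33 minus SK-GT-4. None of the 9 members was called in Cas9 or in cGAS KO cells by edgeR or DESeq2, and none had an unadjusted p under 0.05. By edgeR, 0% of all genes were called in both, and by DESeq2 0.0119% in Cas9 and 0% in cGAS KO cells. For HMOX1 the difference was -0.12 ± 0.36 in Cas9 and 0.48 ± 0.35 in cGAS KO cells, the latter at 0.17 ± 0.33 without OE33 cGAS KO DMSO replicate 2. The other members lay between -0.59 (OSGIN1) and 0.42 (FTH1) in Cas9 and between -0.98 (SRXN1) and 0.41 (NQO1) in cGAS KO cells.

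The fourth comparison set cGAS KO against Cas9 cells. FTH1 in OE33 under reversine was at 1894, 2784 and 1399 CPM in Cas9 and at 1211, 1708 and 825 CPM in cGAS KO cells. The groups overlapped across batches, but within each batch the cGAS KO library was lower (-0.65, -0.71 and -0.76 on the log2 scale). FTH1 was 1.65-fold lower (-0.72 ± 0.12, adjusted p = 0.00145, edgeR), the single member called of 9, against 2.84% of all genes, or 0.955% counted as lower. With no replicate block, the difference was -0.71 ± 0.35 (adjusted p = 0.463, edgeR). Leaving out any 1 of the 3 OE33 cGAS KO reversine libraries gave -0.71 to -0.77 with adjusted p from 0.0106 to 0.0138, and leaving out a whole batch gave -0.70 to -0.76 with adjusted p from 0.0128 to 0.0642 (edgeR), so the call was lost each time. DESeq2 called FTH1 as well (-0.73, adjusted p = 1.06e-11), among 5.67% of genes.

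In DMSO, FTH1 in OE33 was at 1525, 1972 and 969 CPM in Cas9 and at 1289, 1556 and 778 CPM in cGAS KO cells (-0.33 ± 0.12, adjusted p = 0.125, edgeR). In SK-GT-4 DMSO it was at 1971, 1440 and 1183 CPM in Cas9 and at 1034, 887 and 750 CPM in cGAS KO cells, without overlap (1.71-fold lower, -0.77 ± 0.24, adjusted p = 0.0996, edgeR). SK-GT-4 under reversine held 2235, 1292 and 1208 CPM in Cas9 and 1271, 1064 and 858 CPM in cGAS KO cells (-0.54 ± 0.24, adjusted p = 0.251, edgeR). DESeq2 called FTH1 in SK-GT-4 in DMSO (-0.74, adjusted p = 5.0e-05) and under reversine (-0.56, adjusted p = 0.0048), where it called 6.52% and 6.25% of genes. Being lower in 12 of 12 pairs was shared by 0.687% of all genes.

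FTL, the ferritin light chain that assembles with FTH1, had a difference of 0.60 in DMSO and 0.56 under reversine on the log2 scale in OE33, against -0.76 and -1.56 for SK-GT-4, none of them called. The ratio of FTH1 to FTL per kilobase was 0.530 to 0.647 in OE33 Cas9 reversine and 0.212 to 0.275 in OE33 cGAS KO reversine libraries, without overlap. In SK-GT-4 the order was the opposite, also without overlap, at 0.108 to 0.228 in Cas9 reversine and 0.259 to 0.402 in cGAS KO reversine libraries. FTH1 pseudogenes took 0.903% to 1.96% of the counts of the family in OE33 and 0.965% to 5.53% in SK-GT-4, and with them summed in the OE33 difference under reversine was -0.74 ± 0.12 (adjusted p = 0.00139, edgeR). Among 183 genes within 5000000 bases of FTH1, the median difference there was 0.07, with quartiles of -0.10 and 0.22.

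**Figure D4:**
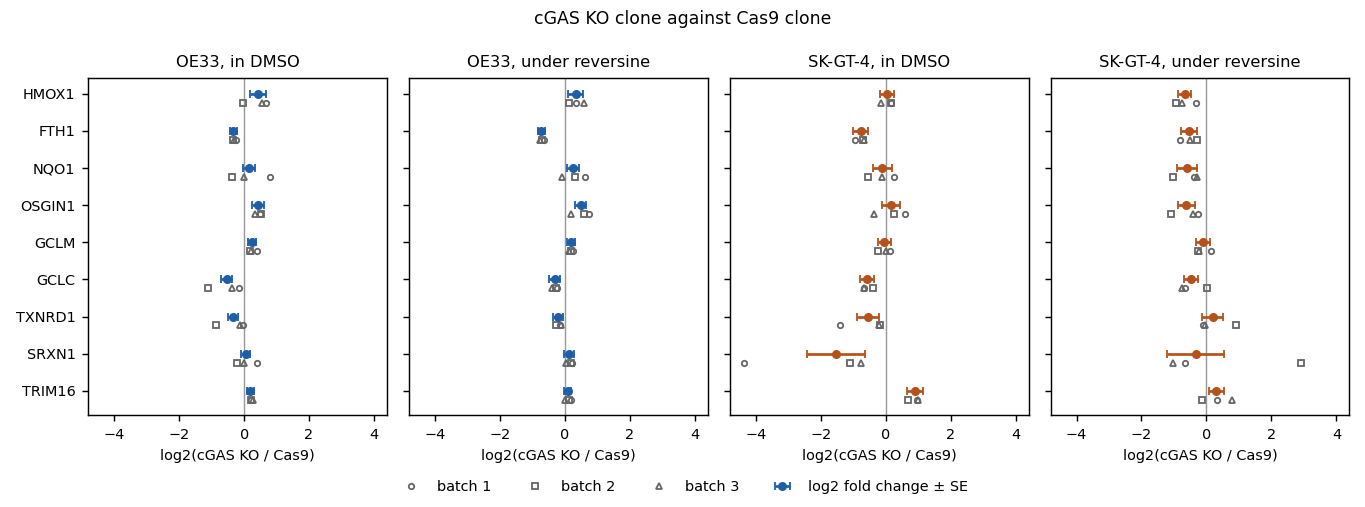
Log2 ratio of cGAS KO to Cas9 cells for the 9 members, by line and treatment. Filled points are fitted log2 fold changes with standard errors, and open symbols are the ratios within batches 1, 2 and 3. FTH1 lies below 0 in all 4 panels, from -0.33 to -0.77, and TRIM16 in SK-GT-4 DMSO lies at 0.89.

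TRIM16 in SK-GT-4 DMSO was at 60.7, 33.6 and 30.3 CPM in Cas9 and at 120, 54.6 and 60.9 CPM in cGAS KO cells (1.86-fold, 0.89 ± 0.24, adjusted p = 0.0638, edgeR). TRIM16L had the opposite sign, at 98.4, 43.5 and 37.1 CPM in Cas9 and at 29.1, 23.5 and 18.5 CPM in cGAS KO cells (-1.21, adjusted p = 0.0154, edgeR). The summed counts of both genes gave differences of 0.04 ± 0.20 in DMSO and -0.18 ± 0.20 under reversine. DESeq2 called TRIM16 alone (0.93, adjusted p = 0.00731), and so did edgeR without the 2 libraries (0.78 ± 0.18, adjusted p = 0.000328). The study's list was chosen with the same libraries, so these calls of TRIM16 are descriptions. Under reversine, the TRIM16 difference in SK-GT-4 was 0.31 ± 0.24, or 0.55 ± 0.18 without the 2 libraries (adjusted p = 0.0196, edgeR). In OE33 DMSO, the differences of TRIM16 and TRIM16L were 0.19 and 0.17, and under reversine TRIM16 differed by 0.09. How the authors' counting divided reads between these near copies is not given in the sources used here.

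GCLC and TXNRD1 were each lower in cGAS KO cells in 11 of 12 pairs, and at least 11 pairs were lower for 2.55% of all genes. In OE33 DMSO, GCLC was at 94.1, 146 and 99.2 CPM in Cas9 and at 85.1, 67.7 and 76.6 CPM in cGAS KO cells, without overlap (-0.54 ± 0.17, adjusted p = 0.0815, edgeR), and without replicate 2 of the latter the difference was -0.25 ± 0.12. The 25 tested genes within 5000000 bases of GCLC had a median difference of -0.33 in the same comparison, and the part of this neighbourhood was not tested. TXNRD1 differed by -0.35 ± 0.15 in OE33 DMSO and -0.20 ± 0.15 under reversine, beside medians of -0.27 and -0.26 over 49 tested genes within the same distance of it, a neighbourhood whose part was likewise not tested. Without OE33 cGAS KO DMSO replicate 2, the DMSO difference of TXNRD1 was -0.11 ± 0.12. In SK-GT-4, the TXNRD1 difference was -0.55 ± 0.33 in DMSO and 0.19 ± 0.32 under reversine, or -0.24 ± 0.18 and -0.06 ± 0.18 without the 2 libraries. For GCLC, SK-GT-4 DMSO libraries held 56.1, 43.1 and 37.9 CPM in Cas9 and 35.6, 33.1 and 23.9 CPM in cGAS KO cells, also without overlap (-0.58 ± 0.21, adjusted p = 0.174, edgeR). The ratio of GCLC to GCLM per kilobase was 0.649 to 1.22 in OE33 cGAS KO DMSO, below the 1.15 to 1.82 of Cas9 but for 1 library.

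Under reversine, the HMOX1 difference had opposite signs in the 2 lines. In OE33 it was higher in cGAS KO cells in all 3 batches (0.33 ± 0.23, adjusted p = 0.461) and in SK-GT-4 lower in all 3 (-0.68 ± 0.21, adjusted p = 0.108, edgeR). Without the 2 libraries the SK-GT-4 value was -0.52 ± 0.18 (adjusted p = 0.029, edgeR). The Cas9 reversine values of HMOX1 helped to name the set, so these HMOX1 differences are descriptions. Being higher in all 3 OE33 batches held for 21% of genes, and being lower in all 3 SK-GT-4 batches for 19.1%. The share of genes with both is not given. OSGIN1 had the same signs as HMOX1, with an OE33 difference of 0.48 ± 0.17 (adjusted p = 0.0973, edgeR). In SK-GT-4 the OSGIN1 difference was -0.62 ± 0.27 (adjusted p = 0.246, edgeR), or -0.36 ± 0.20 without the 2 libraries. In DMSO, the HMOX1 difference was 0.42 ± 0.24 for OE33 against 0.03 ± 0.21 for SK-GT-4, and without OE33 cGAS KO DMSO replicate 2 the OE33 value was 0.74 ± 0.20 (adjusted p = 0.0255, edgeR). In DMSO and under reversine, NQO1 (0.14 and 0.25 for OE33, -0.10 and -0.60 for SK-GT-4), GCLM (0.23 and 0.18, -0.04 and -0.11) and SRXN1 (0.04 and 0.13, -1.53 and -0.33) were not called in any of the 4. Without the 2 libraries, NQO1 in SK-GT-4 stood at -0.36 ± 0.20 and -0.29 ± 0.20, and without OE33 cGAS KO DMSO replicate 2 it stood at 0.38 ± 0.17 in OE33 DMSO. GCLC under reversine differed by -0.32 ± 0.17 in OE33 and by -0.47 ± 0.21 in SK-GT-4.

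In all, 0 of 9 members were called by edgeR in OE33 DMSO, 0 in SK-GT-4 DMSO and 0 in SK-GT-4 under reversine, against 1.47%, 1.76% and 1.41% of all genes. The groups did not overlap for 1 of 9 members in OE33 DMSO (GCLC, with 12.1% of all genes) and for 4 of 9 in SK-GT-4 DMSO (FTH1, GCLC, SRXN1 and TXNRD1, with 20.8%), and overlapped for all 9 under reversine in both lines, where 18% of OE33 genes and 23% of SK-GT-4 genes did not overlap. An unadjusted p under 0.05 was found for 4, 3 and 4 members, against 3569 of 20426, 3978 of 22782 and 4203 of 22782 genes (edgeR). DESeq2 called 0, 2 and 1 members, against 3.63%, 6.52% and 6.25% of genes. TRIM16 was 1 of the 2 in SK-GT-4 DMSO, and its call there is a description. Without the 2 libraries the SK-GT-4 genotypes differed in more genes, 13.3% of all genes in DMSO and 11.6% under reversine, and members were among them. SRXN1 was then lower in cGAS KO cells in DMSO (-0.91 ± 0.21, adjusted p = 0.000374) and under reversine (-0.95 ± 0.19, adjusted p = 8.1e-05), FTH1 was lower in DMSO (-0.70 ± 0.21, adjusted p = 0.00847) and GCLC under reversine (-0.64 ± 0.18, adjusted p = 0.00482, edgeR). In the same fit, the 54 tested genes within 5000000 bases of SRXN1 had median differences of -0.50 in DMSO and -0.40 under reversine, and the part of this neighbourhood was not tested. The SK-GT-4 genotypes also differed in epithelial markers, which summed to 3946 to 7803 CPM in Cas9 and 9697 to 14909 CPM in cGAS KO libraries and of which 2 of 5 were called in DMSO. The part of this difference in the members' values was not tested. Between the lines, the DMSO genotype differences gave 0 members called of 9 by edgeR or DESeq2, against 1.66% of all genes by edgeR and 4.26% by DESeq2. TRIM16 alone of the members had an unadjusted p under 0.05 (-0.68 ± 0.27, adjusted p = 0.227, edgeR), against 3401 of 25181 genes. Its DMSO values entered the choice of the study's list, so this is a description. The other members lay between 0.07 (GCLC) and 1.60 (SRXN1), and SRXN1 was at 0.93 ± 0.25 without the 2 SK-GT-4 libraries (adjusted p = 0.0104, edgeR).

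The rest of the pathway was followed through 46 further genes in 5 lists. No gene of the 46 was called for reversine in either genotype of either line. In the order OE33 Cas9, OE33 cGAS KO, SK-GT-4 Cas9 and SK-GT-4 cGAS KO, the log2 reversine effects of NFE2L2 were 0.13, 0.19, 0.27 and 0.03, those of KEAP1 -0.10, -0.34, -0.06 and -0.17, and those of BACH1 0.16, 0.16, -0.02 and 0.23. The small MAF genes MAFG and MAFK lay between -0.18 and 0.31, and MAFF between 0.21 and 0.68. SLC7A11, the cystine importer, had effects of 0.15, 0.24, 0.84 and 0.35 in the same order, none of them called. The median over the 46 was 0.04, 0.17, 0.23 and 0.10. Of 4 aryl hydrocarbon receptor targets, a group that NQO1 also belongs to, CYP1A1 was called in OE33 Cas9 cells (2.45 ± 0.28, adjusted p = 0.0028, edgeR) and was the single gene called there.

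Between genotypes, the carbonyl and xenobiotic list held most of the calls. Over all genes, edgeR called 1.47% in OE33 DMSO, 2.84% in OE33 under reversine, 1.76% in SK-GT-4 DMSO and 1.41% in SK-GT-4 under reversine. In OE33, cGAS KO cells had more ALDH3A1, an aldehyde dehydrogenase, in DMSO (3.27-fold, 1.71 ± 0.25, adjusted p = 0.00105) and under reversine (2.29-fold, 1.20 ± 0.24, adjusted p = 0.00651, edgeR), 1 of 16 list genes each time. In SK-GT-4, cGAS KO cells had less AKR1C1 and AKR1C2, 2 of 16 list genes in DMSO, and less AKR1C1, AKR1C2 and AKR1C3, 3 of 16, under reversine. AKR1C2 was 14.7-fold lower in DMSO (-3.87 ± 0.44, adjusted p = 0.00082) and 17.6-fold lower under reversine (-4.14 ± 0.45, adjusted p = 0.000556, edgeR). The AKR1C genes reduce ketosteroids and carbonyls and are close in sequence, so the division of reads among them is uncertain. Regulators (10 genes), glutathione and thioredoxin genes (8) and heme and iron genes (6) held no call between genotypes, and the aryl hydrocarbon receptor list held 1 of 4, CYP1A1, lower in OE33 under reversine (-1.30 ± 0.26, adjusted p = 0.0063, edgeR).

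Between untreated Cas9 cells of the lines, 14 of the 46 were called, 7 in each direction, where 22% of all 25181 genes were called. OE33 had more MAFK (2.34 ± 0.37), MAFF (1.30 ± 0.34) and SQSTM1 (1.07 ± 0.30), 3 of 10 regulators, more GSR (1.03 ± 0.26), 1 of 8 glutathione and thioredoxin genes, and more TALDO1 (1.31 ± 0.29), a gene of the NADPH list. SK-GT-4 had more of 6 of 16 carbonyl and xenobiotic genes, led by AKR1C1 (-6.77 ± 1.02), AKR1B10 (-5.59 ± 0.89) and AKR1C3 (-5.05 ± 0.92, log2 OE33 minus SK-GT-4). Of 6 heme and iron genes, BLVRB, biliverdin reductase B, was higher in OE33 (1.55 ± 0.26) and FECH, ferrochelatase, lower (-0.86 ± 0.24), and of 4 aryl hydrocarbon receptor targets CYP1B1 (-3.78 ± 0.51) and AHRR (-1.66 ± 0.44) were lower.

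The likeness of each gene's pattern to HMOX1 was measured over all 24 libraries as the root mean square difference of log2 CPM deviations from the cell line mean, among 11718 genes. OSGIN1, another member, was the closest (0.39), followed by RIT1 (0.39), RIOK3 (0.41), YPEL5 (0.43) and ALDH2 (0.43), where HMOX1's own deviations had a root mean square of 0.60. NQO1 ranked 97th, GCLM 164th, GCLC 460th, TRIM16 1123rd, FTH1 2179th, TXNRD1 3844th and SRXN1 11514th by closeness to HMOX1. Their differences were 0.51, 0.53, 0.56, 0.60, 0.63, 0.67 and 1.33 in that order, where a gene with no deviations would have 0.60. DHRS1, CRCP, MRPS17, MTERF4 and IFI35 were closest to TRIM16 (0.20 to 0.23), and AAMP, PDHB, HTATIP2, GLOD4 and PIR, itself in the carbonyl and xenobiotic list, were closest to NQO1 (0.19 to 0.20). The libraries share depth, batch and the 2 divergent libraries, and these ranks are a description.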

How the data were processed

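Poly(A) RNA of 24 cultures was sequenced as paired 150-base reads. The authors' pipeline used HISAT2 2.0.5 (GRCh38) for alignment, then featureCounts 1.5.0 for gene counts, per the labels and the study's methods, and the deposited table holds these raw read counts. The annotation release, strand setting and treatment of reads with several matches are not given in the sources used here. The deposited gene lengths gave CPM per kb.

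Counts were tested with edgeR 4.0.16 (limma 3.58.1, R 4.3.3) in each line over 12 libraries, with group and batch as terms, TMM factors, a total of at least 5 counts and counts in at least 4 libraries, glmQLFit and glmQLFTest, and Benjamini-Hochberg adjustment with a threshold of 0.01. Differences between lines used all 24 libraries with batch nested in line, and the level difference no block. DESeq2 1.42.0 was an alternative, as were no filter, other normalization, other blocks, summed near copies and leaving out each replicate. Log2 CPM in ratios within batches used a prior count of 2. The labels name the batches. Deviations of same-batch libraries had a median correlation of 0.512 in OE33 (lowest 0.06) and 0.395 in SK-GT-4 (lowest -0.66). Not every same-batch pair in SK-GT-4 therefore deviated together. Scripts were tested on simulated data. No pair of libraries was identical.

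The members and all gene lists were chosen with earlier results of these data known. All 9 members are given by name or within a stated range in every comparison. Of the pathway lists, counts are given, with NFE2L2, KEAP1, BACH1, small MAF genes, SLC7A11, TXN, FTL and CYP1A1, the near copies, and any called gene among the 3 with the largest change of its list. HMOX2 was added for comparison. A further gene that this rule covers is not reported here. For likeness of pattern, the 5 closest genes with a mean of at least 1 CPM in both lines are named. Python 3.11.15 with pandas 2.3.3 and numpy 2.4.6 made the tables.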

Additional observations from a re-analysis of the deposited data

Results flagged for a closer look

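Under reversine, HMOX1 was higher in cGAS KO than in Cas9 cells in all 3 batches of OE33, with a median log2 difference over batches of 0.33, and lower in all 3 batches of SK-GT-4, with a median of -0.76. OSGIN1 had the same pattern, with a median of 0.60 over the OE33 batches against -0.42 over those of SK-GT-4. These 2 genes drew attention because every batch of one line moved opposite to every batch of the other. Of all genes, 21% were higher in all 3 OE33 batches and 19.1% lower in all 3 SK-GT-4 batches. The share of genes with both is not given, so how common the joint pattern is cannot be told. Without the 2 SK-GT-4 libraries with low long genes, the fitted SK-GT-4 difference moved from -0.68 to -0.52 for HMOX1 and from -0.62 to -0.36 for OSGIN1. The difference between the lines under reversine was not tested, and the groups overlapped in both lines. The Cas9 reversine values of HMOX1 helped to name the set, so its pattern is a description.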

How the results depend on the processing

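No called value of a member changed direction under the alternatives run. The 5 called member values kept their call in 68 of the alternatives run for them and lost it in 18. Of the alternatives for values that were not called, 2614 gave no call and the same sign, 151 gave no call and the opposite sign, and 17 gave a call. Of the values given without a test, 5 alternatives moved them by more than the spread between batches and 179 did not. The count of members called for cGAS KO against Cas9 changed from 0 to 1 in OE33 DMSO with no filter (GCLC, -0.52, adjusted p = 0.00387), from 0 to 2 in SK-GT-4 DMSO and from 0 to 1 in SK-GT-4 reversine with DESeq2, and to 3 and 2 without the 2 SK-GT-4 libraries, an alternative chosen after seeing the data. In OE33 reversine it went from 1 to 0 with no replicate block, and ranged from 0 to 1 when replicates were left out. For reversine in OE33 it went from 0 to 1 in Cas9 cells with DESeq2, and from 0 to 1 in cGAS KO cells with no filter (HMOX1, 0.94, adjusted p = 1.57e-05) or with a replicate block per genotype and batch. The main fit gave HMOX1 nearly the same log2 ratio with no call, and the share of all genes called with no filter is not given here. The count for the level difference between lines was 4, with a range of 0 to 5 when replicates were left out, at 1 without replicate 2 and 0 without replicate 3. A replicate block shared by both lines added TRIM16 (0.97, adjusted p = 0.000939). Apart from these calls of FTH1 (OE33 reversine, no replicate block), HMOX1 (block per genotype and batch) and TRIM16, the choice of block changed no call. Where calls changed, the cause was not tested. The SK-GT-4 DMSO counts of 2 and 3 include TRIM16, whose calls there are descriptions because the study's list drew on the same libraries. With 3 libraries a group, a member that missed the threshold is not shown to be unchanged.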
